A study of Mus musculus with 4 samples.

Results

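The 9 genes described here belong to the neural crest cells that build the nervous system of the gut, to the glia they form, and to the signals that guide them. They were Sox10, Erbb3, Ednrb, Edn3, Gdnf, Gfra1, Nrtn, Fabp7 and S100b, chosen by symbol from a table of 51098 genes, and each symbol matched 1 row. RNA sequencing of ribosome-depleted total RNA was used to measure them in stomachs of mouse embryos at E15.5. The Fgf9_null samples were Fgf9LacZ/LacZ and the Fgf9_het samples Fgf9LacZ/+, with 2 samples numbered 2 and 3 under each genotype. Every sample thus carried at least 1 LacZ allele of Fgf9, the gene of a secreted fibroblast growth factor, and no sample without it was compared. The labels name neither the strain nor whether a sample was a single embryo or a pool. The heterozygous samples, titled WT by the submitters, are the controls.

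The enteric nervous system forms from vagal neural crest cells that enter the foregut and migrate along the gut wall. The mesenchyme of the gut secretes GDNF, which binds the receptor GFRA1 on these cells and signals through the kinase RET. It also secretes endothelin-3, which acts on the receptor EDNRB and keeps the progenitors from differentiating too early. The transcription factor SOX10 maintains the progenitors and is later retained in glia, which use the neuregulin receptor ERBB3 and express FABP7 and S100B. Loss of SOX10, EDNRB, endothelin-3 or the GDNF receptors leaves parts of the mouse gut without ganglia.

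The columns of the table did not hold 4 separate libraries. Column totals were 19537211 and 22713416 estimated counts for Fgf9_null and 19269851 and 22425865 for Fgf9_het, and 3 counts, taken as the detection floor, equalled 0.132 to 0.156 CPM (the count scaled to a column total of 1e+06). A chi-square comparison of counts, without 4 genes at an unadjusted edgeR p under 0.05, gave a statistic per degree of freedom of 0.000792 and 0.00385 for the columns numbered 2 and 3. Columns of different number gave 5.49 to 5.50. Those 4 genes were picked by the contrast of the labels, and the statistic with them was not computed. Which genes make up the gap between the totals of same-numbered columns is not reported here. For the other genes, sampling noise exceeds the difference within a number, so each number was counted as 1 sample, called library 2 and library 3. Which genotype either library had cannot be told apart from these columns. For Fgf9 itself, the Fgf9_null columns 2 and 3 held 133 and 131 reads and the Fgf9_het columns 133 and 131, so the targeted gene does not separate the labels. Which part of Fgf9 the allele removes is not stated in the labels.

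The question of the design, whether these genes differ between Fgf9_null and Fgf9_het stomachs, has no answer in these columns. All 9 genes had nearly identical read counts under both labels. Same-numbered columns differed by at most 3 reads, for Erbb3, and 4 of the 9 genes were equal within 0.001 reads in both libraries. Gdnf had the log2 fold farthest from 0, at -0.0033 for Fgf9_null over Fgf9_het (SE 0.0928, edgeR adjusted p of 1). edgeR's quasi-likelihood test called 0 of the 9 genes and 0 of 19987 genes tested at an adjusted p under 0.05, a background of 0%. It left 0 of the 9 and 4 of all genes at an unadjusted p under 0.05, which is 0.02%. DESeq2 called 3 genes of the table (0.0101%) and edgeR with the replicate number as a block called 6, among them none of the 9. Because each contrast sets a library against itself, these counts do not measure an effect of Fgf9.

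**Figure D1:**
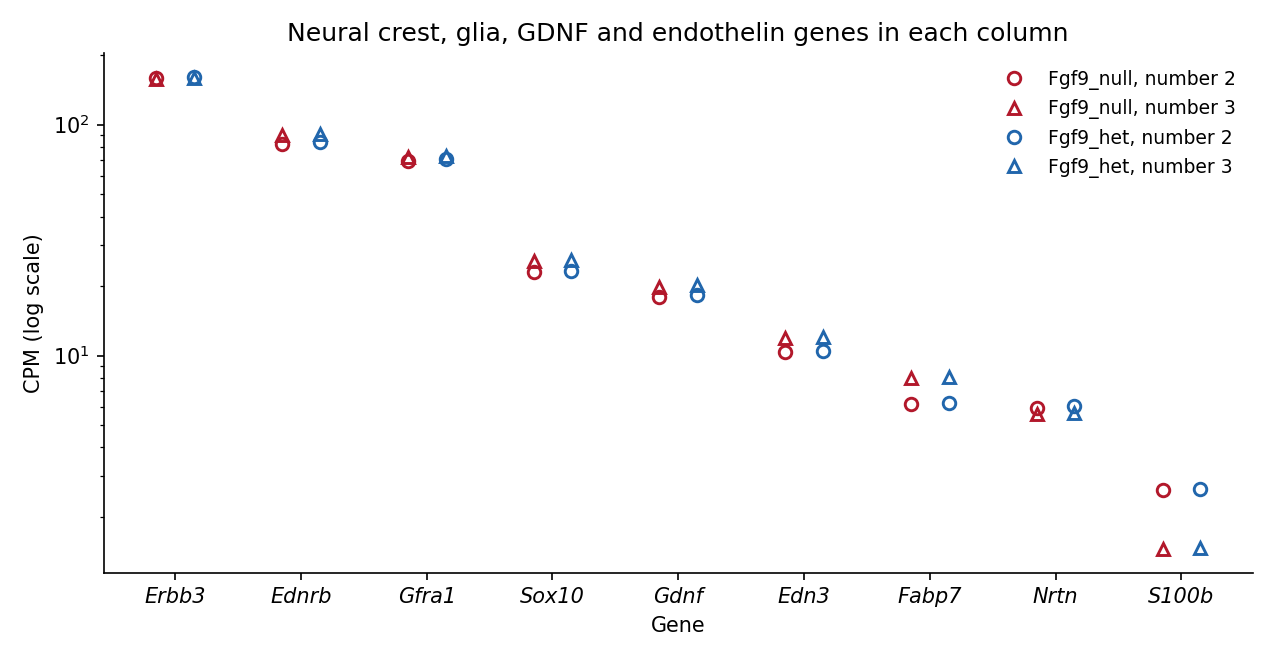
CPM of the 9 genes on a log axis in each of the 4 columns, with Fgf9_null in red left of Fgf9_het in blue, circles for samples numbered 2 and triangles for samples numbered 3. The symbols of 1 number stand at the same height under both genotype labels, and mean CPM spans 2.05 for S100b to 159 for Erbb3, without scaling to length.

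What the columns do hold is the level of each gene in the stomach. Levels are given below as mean CPM ± SD over the 2 libraries. Levels of different genes are compared only as TPM (the count per base of transcript, scaled to a total of 1e+06, with the mean length of the annotated transcripts of a gene). In whole-stomach RNA, fewer cells of a type and less RNA per cell cannot be told apart. All 9 genes passed 1 CPM in both libraries and all passed the count filter of the test.

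Gdnf and Nrtn, which encode ligands of the GDNF family, lay close to each other per length. Gdnf (ENSMUSG00000022144, GRCm38 chromosome 15, 7810846 to 7837575, plus strand) encodes the ligand that attracts crest cells into the gut. It had 351 and 450 reads in Fgf9_null 2 and 3, and 352 and 451 reads in Fgf9_het 2 and 3. Nrtn (ENSMUSG00000039481, chromosome 17, 56751325 to 56757530, minus strand) encodes neurturin, a related ligand that supports enteric neurons after they form. Its columns held 116 and 127 reads under the Fgf9_null label and the same under the Fgf9_het label. Gdnf stood at 19.04 ± 1.30 CPM and Nrtn at 5.80 ± 0.248 CPM (SD, n = 2 libraries). Gdnf had more reads, but its transcript of 3674 bases is longer than the 1023 bases of Nrtn. Per length, Nrtn reached 8.20 ± 0.394 TPM and Gdnf 7.49 ± 0.474 TPM, a Gdnf to Nrtn ratio of 0.844 in library 2 and 0.988 in library 3. The counting intervals of that ratio, 0.683 to 1.05 and 0.809 to 1.21 (exact, 95%), include equal levels in both libraries. The other ligand genes of the family were Artn (artemin), at 7.87 ± 0.0183 TPM, and Pspn (persephin), at 0.696 ± 0.539 TPM from 2 reads in library 2 and 8 in library 3.

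The receptor genes Gfra1 and Ret were higher than Gdnf per length, whereas Gfra3 and Gfra4 were lower with mean transcript lengths. Gfra1 (ENSMUSG00000025089, chromosome 19, 58235604 to 58455909, minus strand) encodes the membrane-anchored coreceptor that binds GDNF. It had 1362 and 1638 reads in Fgf9_null 2 and 3, and 1362 and 1638 reads in Fgf9_het 2 and 3. Its level was 71.4 ± 1.70 CPM and 50.2 ± 0.928 TPM. Ret, the kinase shared by all ligands of the family, stood at 64.8 ± 2.24 CPM and 18.8 ± 0.551 TPM. Gfra2, the preferred receptor gene of neurturin, stood at 10.9 ± 0.891 TPM, Gfra4, which binds persephin, at 6.08 ± 1.21 TPM, and Gfra3, which binds artemin, at 0.841 ± 0.0766 TPM. Per length, Gfra1 exceeded Gdnf 6.93-fold in library 2 and 6.50-fold in library 3. Its level depended on the transcript length used. With the longest transcript of each gene the mean ratio of Gfra1 to Gdnf was 2.97, and with merged exons 2.52. Ret exceeded Gdnf by 2.57-fold and 2.45-fold in libraries 2 and 3, and by 2.29-fold and 1.85-fold on average with the other lengths. Of the 31-base words in Gfra1 transcripts, 7.05% also occur in Gm16277, an antisense gene whose exons overlap it. That gene had 0.187 CPM. Gfra2 exceeded Nrtn 1.36-fold and 1.30-fold per length in libraries 2 and 3, but was at 0.803 and 0.788 of it on average with the other lengths, so this pair has no set order.

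Endothelin-3 was the leading endothelin ligand gene. Edn3 (ENSMUSG00000027524, chromosome 2, 174760619 to 174784042, plus strand) had 202 and 270 reads in Fgf9_null 2 and 3 and again 202 and 270 reads in Fgf9_het 2 and 3. It stood at 11.2 ± 1.10 CPM and 9.23 ± 0.857 TPM. Edn1 and Edn2, the genes of the other endothelins, had 2.45 ± 0.297 and 1.43 ± 0.360 TPM. Edn1 was at 0.308 of the Edn3 level in library 2 and 0.227 in library 3, and at 0.477 and 0.629 on average with the longest transcript and with merged exons. Ece1, the protease that releases active endothelins from their precursors, reached 135 ± 2.40 TPM, and the related Ece2 3.30 ± 0.0645 TPM. Per length, Ece1 exceeded Edn3 15.4-fold and 13.9-fold in libraries 2 and 3, and 8.16-fold and 9.79-fold on average with the other lengths.

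The endothelin receptor genes lay close to each other. Ednrb (ENSMUSG00000022122, chromosome 14, 103814625 to 103844402, minus strand), the receptor gene of crest progenitors, had 1612 and 2039 reads in Fgf9_null 2 and 3, and 1613 and 2039 reads in Fgf9_het 2 and 3. Its level was 86.7 ± 5.12 CPM and 34.9 ± 1.88 TPM. Ednra, a receptor gene known from smooth muscle and mesenchyme, stood at 63.8 ± 3.37 CPM and 27.2 ± 1.29 TPM, that is 0.783 and 0.776 of the Ednrb level in libraries 2 and 3. With merged exons that share was 0.573. Ednrb exceeded Edn3 per length 3.90-fold and 3.69-fold in libraries 2 and 3, and 5.90-fold and 7.49-fold on average with the other lengths.

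Erbb3 was among the top 3 of the 9 genes per length. It encodes a neuregulin receptor with a weak kinase that signals in pairs with ERBB2. The gene (ENSMUSG00000018166, chromosome 10, 128567523 to 128589652, minus strand) had 3108 and 3571 reads in Fgf9_null 2 and 3, and 3111 and 3574 reads in Fgf9_het 2 and 3. It stood at 159 ± 1.39 CPM. Its transcript of 6016 bases is long, and per length it reached 38.3 ± 0.537 TPM. The partner gene Erbb2 reached 71.9 ± 1.45 TPM, 1.89-fold and 1.87-fold the Erbb3 level in libraries 2 and 3, and 1.23-fold and 1.18-fold on average with the other lengths. Egfr stood at 44.8 ± 0.733 TPM with its mean transcript length of 2955 bases. Its longest transcript has 10208 bases and its CPM, 91.7, is below that of Erbb3, so with that length it falls below Erbb3. Erbb4, the other neuregulin-binding kinase gene, had only 0.184 ± 0.0245 TPM from 12 and 17 reads. Among the ligand genes, Nrg1 led at 17.7 ± 0.987 TPM, followed by Nrg2 at 8.30 ± 0.588, Nrg4 at 3.24 ± 0.456 and Nrg3 at 2.09 ± 0.0571 TPM. Erbb3 exceeded Nrg1 per length 2.10-fold and 2.23-fold in libraries 2 and 3, and 5.67-fold and 10.8-fold on average with the longest transcript and with merged exons.

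Epithelium also expresses Erbb3, and it made up a part of these stomachs. The 6 epithelial marker genes summed to 1394 CPM in library 2 and 1418 CPM in library 3, with Krt8 and Cdh1 (the genes of a keratin and of E-cadherin) at 581 ± 9.74 and 389 ± 3.32 CPM. The 7 smooth muscle and mesenchyme genes summed to 4825 and 5000 CPM in libraries 2 and 3, and the 5 endothelial genes to 290 and 333 CPM. How much of the Erbb3 or Ednrb signal came from these cells was not tested.

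**Figure D2:**
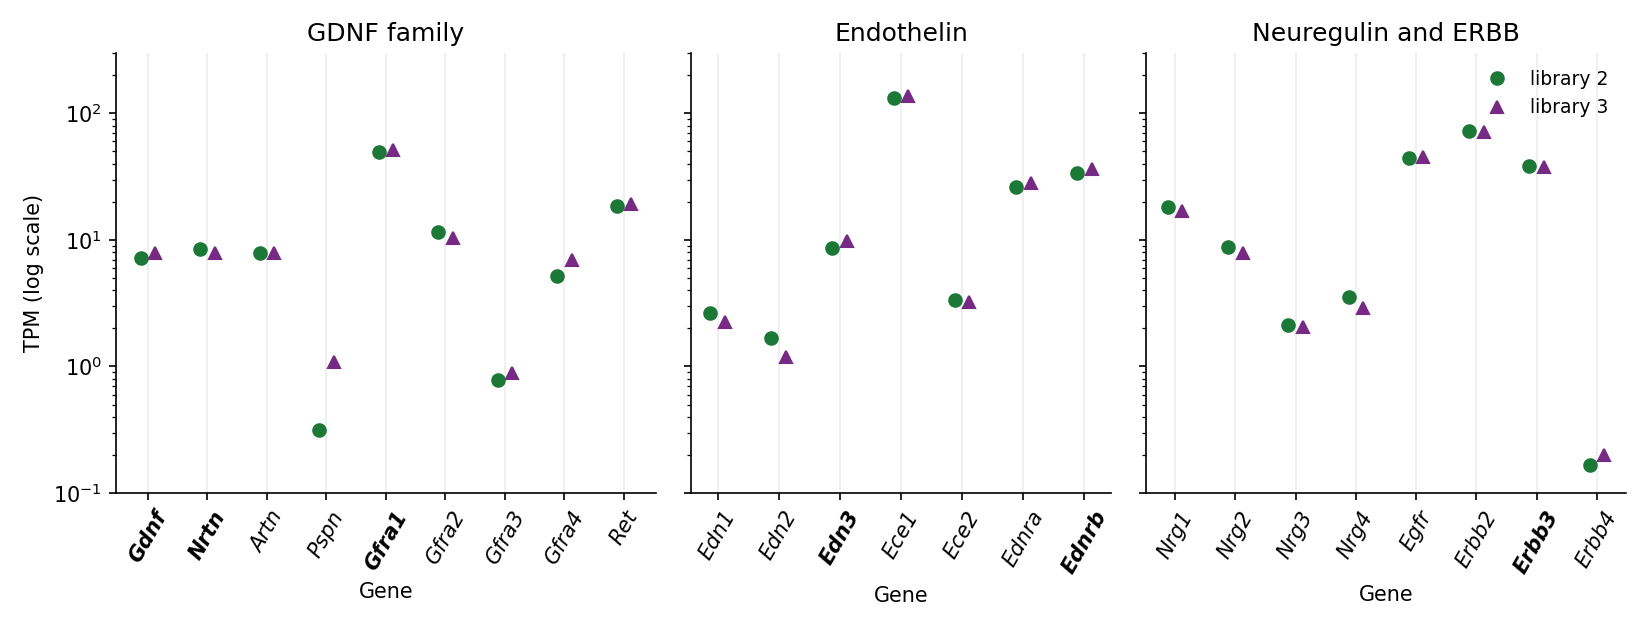
TPM (log axis) of every gene of the GDNF family, endothelin, and neuregulin and ERBB lists, with circles for library 2 and triangles for library 3; bold names are those of the 9 genes. The ligand genes Gdnf at 7.49 and Edn3 at 9.23 TPM lie below their receptor genes Gfra1 at 50.2 and Ednrb at 34.9 TPM. Nrtn at 8.20 TPM lies near its preferred receptor gene Gfra2 at 10.9 TPM, and their order depends on the length used. Ece1 tops the plot at 135 TPM with mean transcript lengths, but with merged exons Erbb2 has the higher level.

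Sox10 stood for the crest lineage itself. The gene (ENSMUSG00000033006, chromosome 15, 79154908 to 79165240, minus strand) encodes an HMG-box transcription factor that activates Ret, Ednrb and Erbb3 in crest cells. Its columns held 449 and 582 reads for Fgf9_null and 449 and 583 reads for Fgf9_het. The level was 24.5 ± 1.89 CPM and 19.3 ± 1.39 TPM. Only 0.822% of the 31-base words in its transcripts occur in another gene, and that gene is its relative Sox9. Per length, Ednrb was 1.84-fold and 1.79-fold the Sox10 level in libraries 2 and 3, and 2.40-fold and 2.54-fold on average with the longest transcript and with merged exons. Erbb3 was 2.11-fold and 1.87-fold the Sox10 level in libraries 2 and 3, and 3.02-fold and 3.31-fold on average with the other lengths.

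Most other crest genes were detected too. Of 12 genes in the crest progenitor list, 10 reached 1 CPM in both libraries. Zeb2 and Sox9, which mesenchyme expresses too, stood at 205 ± 5.08 and 30.9 ± 0.571 TPM, and Ets1 at 42.3 ± 1.94 TPM. The part of crest cells in the levels of Zeb2, Sox9 and Ets1 was not tested. Pax3, a gene of early crest, was at 0 reads in every column, below the floor of 3 counts. Genes of melanocytes, the pigment cells that also derive from crest and depend on Sox10 and Ednrb, summed to 17.7 CPM in library 2 and 16.7 CPM in library 3 over 6 genes. Tyr and Mitf stood at 8.58 ± 0.480 and 5.57 ± 0.0796 CPM, Pmel at 1.71 ± 0.0870 and Dct at 1.32 ± 0.397 CPM, and Tyrp1 had no reads in any column.

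The 2 glial genes of the set differed most between the libraries, and S100b had the lowest level of the 9 genes per length. Fabp7, which encodes a fatty acid binding protein of immature glia, had 120 and 181 reads in Fgf9_null 2 and 3, and 120 and 181 in Fgf9_het 2 and 3. S100b, which encodes a calcium binding protein of more mature glia, had 51 and 33 reads in Fgf9_null 2 and 3, and 51 and 33 in Fgf9_het 2 and 3. Fabp7 stood at 7.10 ± 1.30 CPM and 12.2 ± 2.16 TPM, and S100b at 2.05 ± 0.825 CPM and 1.99 ± 0.814 TPM. S100b was the only one of the 9 genes under 5 CPM. The exact Poisson intervals (95%, counting error only) were 99.5 to 143 reads in library 2 and 156 to 209 reads in library 3 for Fabp7. For S100b they were 38.0 to 67.1 and 22.7 to 46.3 reads. Fabp7 was lower and S100b higher in library 2 than in library 3, and the Fabp7 to S100b ratio per length was 4.15 in library 2 and 9.67 in library 3. The counting intervals of this ratio, 2.96 to 5.87 and 6.64 to 14.5, do not overlap. However, these genes had the lowest and highest library 2 to library 3 ratios of the 9, so a wide gap follows from the choice of pair. The mean Fabp7 to S100b ratio was 6.91, against 6.61 with the longest transcript and 4.65 with merged exons. The intervals cover counting error only, and 2 libraries give no measure of the spread between embryos.

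Both glial genes lie on chromosome 10, and the bases before their start sites are shown because these were the genes of the set more than 1.2-fold apart between the libraries, in opposite directions; they were picked with those values known. The windows come from RefSeq on GRCm38.p6, plus strand, and end before the first annotated transcribed base; capitals mark CCAAT or its reverse complement ATTGG.
Fabp7, chr10:57784673-57784880: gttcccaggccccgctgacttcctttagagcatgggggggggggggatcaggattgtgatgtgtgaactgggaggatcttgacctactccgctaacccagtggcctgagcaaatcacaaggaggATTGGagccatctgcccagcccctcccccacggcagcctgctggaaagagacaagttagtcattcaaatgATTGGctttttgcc
S100b, chr10:76253586-76253835: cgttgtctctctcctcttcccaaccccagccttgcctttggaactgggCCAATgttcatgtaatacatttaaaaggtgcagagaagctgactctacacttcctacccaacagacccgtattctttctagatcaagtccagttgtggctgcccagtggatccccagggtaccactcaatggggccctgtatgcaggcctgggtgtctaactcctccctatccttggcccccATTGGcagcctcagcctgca

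Each window held 2 copies of CCAAT, counted on either strand. At least 1 copy occurs in 33.8% of all 32851 promoter windows of 250 bases and in 29.6% of those of 208 bases. The share with 2 copies was not computed. Neither window held ACAAAG, a core of the SOX motif, or TATAAA, searched on both strands. These occur in 16.5% and 12.4% of windows of 250 bases, and in 14.1% and 9.47% of those of 208 bases. Such matches describe the letters and not binding. The S100b gene (ENSMUSG00000033208, chromosome 10, 76253853 to 76261159) lies across from Dip2a, which runs on the opposite strand at 76.9 CPM, without overlap of exons. Fabp7 is ENSMUSG00000019874, at 57784881 to 57788450.

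Other genes of glia and Schwann cells were detected over a wide range. In this list 12 of 16 genes reached 1 CPM in both libraries. Mbp (a myelin gene with a broadly expressed variant) stood at 40.5 ± 2.46 TPM, Sox2 at 29.7 ± 4.91, Cnp at 18.6 ± 0.275 and Ptprz1 at 7.97 ± 0.301 TPM, of which Sox2 is also a gene of foregut epithelium. Gfap, the filament gene of mature glia, had 0.767 ± 0.123 TPM and was picked with its value known. S100b is known from cartilage as well, and the 4 cartilage genes summed to 4.07 CPM in library 2 and 5.05 CPM in library 3. Col9a1, Col2a1, Acan and Matn1 stood at 2.71 ± 0.621, 0.940 ± 0.201, 0.892 ± 0.242 and 0.0222 ± 0.0313 CPM, and the part of cartilage in the S100b level was not tested.

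Ordered per length, the 9 genes ran from Gfra1 at 50.2 TPM through Erbb3 at 38.3, Ednrb at 34.9, Sox10 at 19.3, Fabp7 at 12.2, Edn3 at 9.23, Nrtn at 8.20 and Gdnf at 7.49 to S100b at 1.99 TPM. The highest level was 25.2-fold the lowest. Values of neighbours did not overlap over the 2 libraries, but 3 neighbouring pairs were within 1.13-fold of each other. These were Erbb3 and Ednrb at 1.10-fold, Edn3 and Nrtn at 1.13-fold, and Nrtn and Gdnf at 1.09-fold. For Nrtn and Gdnf, counting error includes equal levels, and for the other pairs this was not computed. Edn3 and Nrtn had 8.63 and 8.48 TPM in library 2, and Erbb3 and Ednrb 37.9 and 36.3 TPM in library 3. With the longest transcript or with merged exons the top 3 were the same genes, led by Erbb3 at 57.9 or 66.5 TPM with Gfra1 behind Ednrb at 33.7 or 32.7 TPM. Edn3 then fell behind Nrtn and Gdnf, at 7.85 or 6.83 TPM. Sox10 and Fabp7 followed the top 3, and S100b was last, with all 3 lengths. With merged exons, however, Fabp7 and Nrtn were nearly level, at 14.26 and 14.25 TPM.

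Between the libraries, 7 of the 9 genes differed by less than 1.2-fold. The remaining pair was glial. For S100b the level was 2.63 CPM in library 2, against 1.46 CPM in library 3, a ratio of 1.798 (counting interval 1.14 to 2.88). For Fabp7 it was 6.18 CPM in library 2, against 8.02 CPM in library 3, a ratio of 0.771 (0.607 to 0.977). Over all 16712 genes that reached 1 CPM in each library, 12.5% were more than 1.2-fold higher in library 2 and 7.17% more than 1.2-fold lower. One gene of the 9 on each side is thus near what all genes showed. Past 1.5-fold the shares were 2.52% higher and 1.36% lower in library 2, and S100b was the 1 gene of the set beyond it. The ratio of S100b was above 99.4% of all genes and that of Fabp7 above 3.85%. Genes of every level enter these shares, and ratios spread more widely at low CPM, where S100b lies at 2.05 CPM. Shares among genes of like level were not computed.

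Of the remaining 7 genes, 5 lay on the lower side in library 2. Only the interval of Ednrb excluded 1, though Edn3, Sox10 and Gdnf had ratios farther from 1 on fewer reads. The share of all genes with an interval that excludes 1 was not computed. Ednrb stood at 83.1 CPM in library 2, against 90.4 CPM in library 3, a ratio of 0.920 (0.861 to 0.983). Sox10 had 23.1 and 25.8 CPM in libraries 2 and 3 (0.897, 0.792 to 1.02), Gdnf 18.1 and 19.96 CPM (0.908, 0.789 to 1.05) and Edn3 10.4 and 12.0 CPM (0.870, 0.722 to 1.05). Gfra1 was at 70.2 and 72.6 CPM, a ratio of 0.967 (0.899 to 1.04). The other two were Nrtn, with 5.98 and 5.63 CPM (1.06, 0.819 to 1.38), and Erbb3, with 160 and 158 CPM (1.01, 0.965 to 1.06). The ratio of Erbb3 turned to 0.999 with TMM-scaled library sizes, so its side of 1 depends on the scaling. The set had a median ratio of 0.920 with 6 of 9 genes below 1, against a median of 1.01 and 45.8% below 1 over all genes. Endothelial genes had ratios below 1 as well, 5 of 5, with a median ratio of 0.894, and 5 of 7 smooth muscle and mesenchyme genes were, with a median of 0.951. Their part in the ratios of the 9 genes was not tested.

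**Figure D3:**
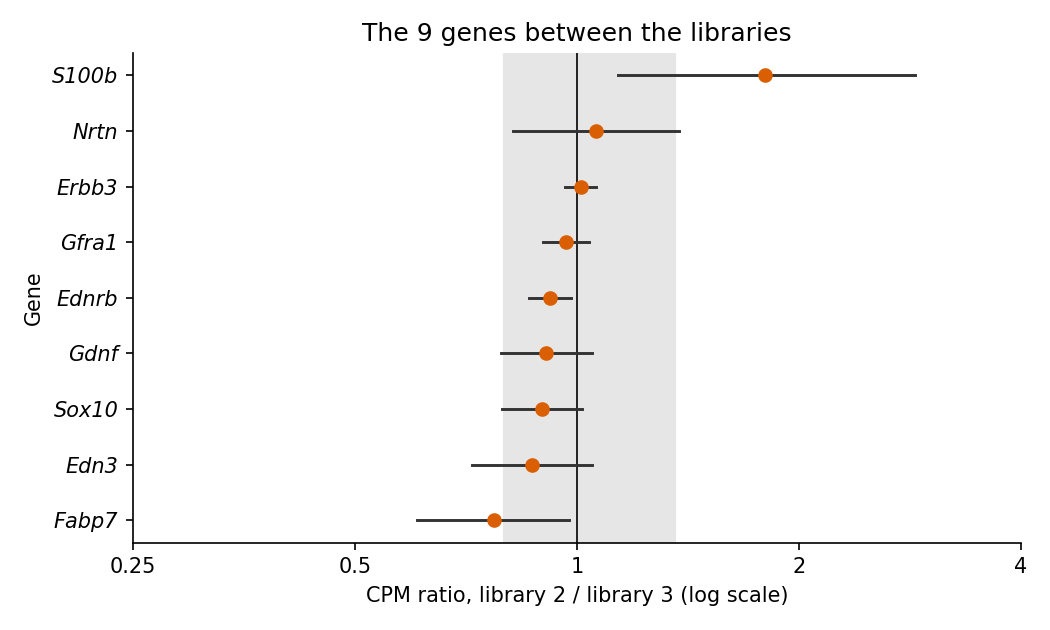
Ratio of CPM in library 2 to CPM in library 3 for the 9 genes (log axis), with exact 95% counting intervals as bars; the grey band spans the 5th to 95th percentile of all genes at 1 CPM or more, 0.797 to 1.36. S100b at 1.798 and Fabp7 at 0.771 lie outside the band on opposite sides, and the other genes lie inside it.

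**Figure D4:**
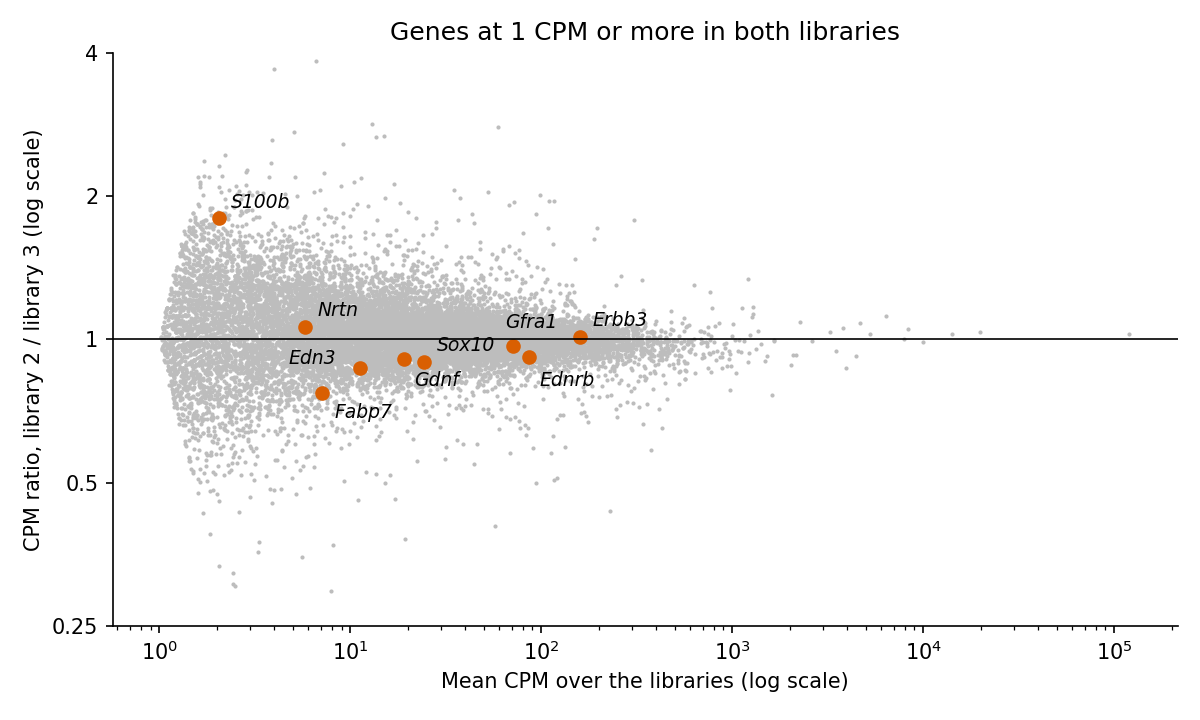
Ratio of CPM in library 2 to CPM in library 3 against mean CPM (both axes log) for 16712 genes in grey and the 9 genes in orange; 7 genes beyond 0.25 or 4 are not drawn. The grey cloud widens toward low CPM, where S100b at 2.05 CPM lies near its upper edge.

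The pathways around these genes did not all lean to 1 library. In the GDNF family list 6 of 8 genes at 1 CPM were lower in library 2, with a median ratio of 0.960, and 4 of 7 endothelin genes were, with a median of 0.968. Of the neuregulin and ERBB list, 6 of 7 were higher in library 2, with a median of 1.03. Over all genes, 54.2% were higher and 45.8% lower in library 2, with a median of 1.01. Among the genes counted in the GDNF, endothelin and neuregulin lists, only the interval of Ednrb excluded 1. These counts thus set no direction for a pathway. Crest progenitor genes split evenly, 5 higher and 5 lower, with a median of 1.00. edgeR called 0 genes of these lists, of all lists and of all 19987 genes tested between Fgf9_null and Fgf9_het. That contrast sets each library against itself, so these counts do not measure an effect of Fgf9.

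Genes of the glia and Schwann cell list lay on both sides. Of the 12 detected, Fabp7 and S100b among them, 8 were higher in library 2 and 4 lower, with a median ratio of 1.06, and 4 passed 1.2-fold on each side. Sox2 had the narrowest interval among those past 1.2-fold, with 47.0 CPM in library 2, against 37.5 CPM in library 3, a ratio of 1.26 (1.14 to 1.38). Of 13 detected genes in the enteric neuron list, 5 were higher and 8 lower in library 2, with a median of 0.945. Nos1, the gene of neuronal nitric oxide synthase, had a ratio of 1.09 (1.02 to 1.17), Tubb3 1.03 (0.9497 to 1.12), Stmn2 0.995 (0.908 to 1.09) and Hand2, a transcription factor gene of neurons and mesenchyme, 0.891 (0.830 to 0.955). The summed neuron genes were nearly level, with 411 CPM in library 2 against 418 CPM in library 3. Summed over the 9 genes, the level was 380 CPM in library 2 and 394 CPM in library 3, of which Erbb3 alone made up 160 and 158 CPM.

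**Figure D5:**
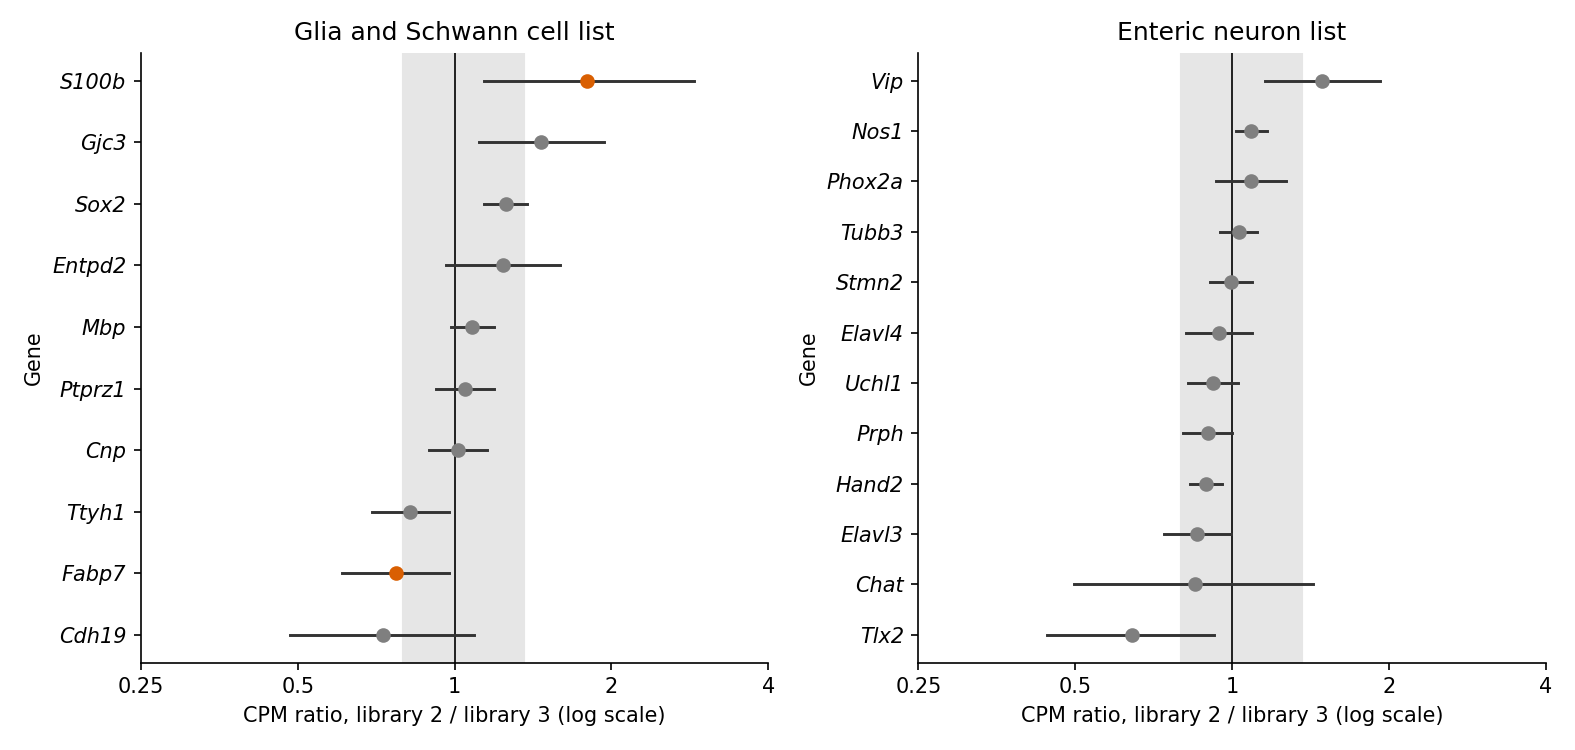
Ratio of CPM in library 2 to CPM in library 3 (log axis) with exact 95% counting intervals for 10 of the 12 glia and Schwann cell genes and 12 of the 13 enteric neuron genes at 1 CPM or more; orange marks members of the 9 genes and the grey band spans the 5th to 95th percentile of all genes. Glial genes spread from Cdh19 at 0.729 to S100b at 1.798, with Fabp7 and S100b near opposite ends, and neuron genes from Tlx2 at 0.642 to Vip at 1.49 (Cdh19, Tlx2 and Vip are named as the ends).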

How the data were processed

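The authors deposited 1 table of estimated counts by Ensembl gene ID, without depth scaling; 28.5% to 29.1% of the values in a column are not whole. Tools named in the submitters' processing notes are edgeR, Salmon 1.8.0, Trimmomatic 0.33 and FastQC 0.10, with mm10 and GRCm38 as builds and no roles. Annotation release, strand setting and gene summarisation: not given in the sources used here. Samples were grouped by genotype and matched to columns by title, where the heterozygous samples are abbreviated WT. A further 2 columns have no name and were not used. The sources do not settle whether each name stands over its own column.

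The correlation, over 19412 genes, between deviations from the group mean in columns of 1 number was 0.999; the numbers come from the titles and pair columns of 1 library, whose mean was used. Rounded counts were tested with edgeR 4.0.16 (TMM, filterByExpr, quasi-likelihood test with its default bound on the p-value, Benjamini-Hochberg over all genes), with DESeq2 1.42.0 and limma 3.58.1 as alternatives, in R 4.3.3. The fits and the ratio intervals were tested on simulated data. Coordinates, transcript lengths and shared 31-base words come from GENCODE M21 (GRCm38), which holds 50870 of the 51098 genes. Of the 9 genes, 7 matched the RefSeq promoter table. Poisson, ratio and floor values (3 counts) cover counting error only. The 9 genes and all lists were chosen with earlier results of these data known. Beside the 9 genes, the text names Fgf9, every gene of the GDNF, endothelin and neuregulin lists, at most the 4 genes of highest mean CPM of each other list, and genes at 0; others are said to be chosen later or mark the ends of a plot. Some list genes are not reported here. No gene of similar pattern was sought, since 2 libraries always match.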

Additional observations from a re-analysis of the deposited data

How the results depend on the processing

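No gene of the 9 was called under any setting tried, and the count of called genes over the table was 0 with limma-voom, without a filter, with a filter of 1 CPM in every column and with upper-quartile or RLE factors. DESeq2 called 3 genes and edgeR with a replicate block, a pairing of columns of 1 library, called 6. Leaving out 1 column gave 1 to 2 called genes, Rn7s6 in each case and Gm19220 without Fgf9_null replicate 2 or 3; the lone column was assumed to vary like the other group, and these fits set library 2 and library 3 in unequal numbers. The log2 fold of Ednrb turned to 0.00038 with RLE factors and to 0.00033 with DESeq2, against -0.00012 in the fit reported; the cause was not tested. Leaving out 1 column gave log2 folds of Fgf9_null over Fgf9_het from -0.11 to 0.11 for Fgf9, -0.093 to 0.092 for Sox10, -0.0024 to 0.00036 for Erbb3, -0.073 to 0.072 for Ednrb, -0.12 to 0.12 for Edn3, -0.087 to 0.0800 for Gdnf, -0.035 to 0.035 for Gfra1, -0.034 to 0.034 for Nrtn, -0.21 to 0.22 for Fabp7 and -0.46 to 0.46 for S100b. Of the 40 fold values under other settings and the 40 from leaving out a column, 0 passed the threshold. Levels from the Fgf9_null columns alone were 0.992 to 0.993 times those reported, from the Fgf9_het columns alone 1.01 times, and without 6 structured RNAs in the library size 1.204 to 1.206 times. The number of the 9 genes detected was 8 at a threshold of 5 CPM. Depth limits S100b most, at 33 to 51 reads, and 2 libraries limit every comparison.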
